A study of Mus musculus with 6 samples.

Results

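Voltage-gated calcium channels are built around a pore-forming alpha1 subunit, and 2 kinds of auxiliary subunit decide how much of that pore reaches the surface and how it gates. The cytosolic beta subunits (Cacnb genes) bind the linker between the first and second repeats of alpha1 through a guanylate kinase-like domain, promote surface expression and tune activation and inactivation. The alpha2delta subunits (Cacna2d genes) are extracellular, membrane-anchored glycoproteins cut from a single precursor, and they raise the number of channels at the membrane. In beta cells these channels open when ATP-sensitive potassium channels close, and the calcium that enters triggers insulin granule exocytosis.

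The members described here are the auxiliary subunit genes Cacnb1, Cacnb2, Cacnb3, Cacnb4, Cacna2d1, Cacna2d2 and Cacna2d3, taken through every probe set annotated to 1 of them and to no other gene. Of the 7 genes 6 had such a probe set, with 18 of the 45101 probe sets on the array between them. Cacnb1 had 4, Cacnb2 had 2, Cacnb4 had 3, Cacna2d1 had 5, Cacna2d2 had 3 and Cacna2d3 had 1. No probe set was annotated to Cacnb3 in the table used, so it was not analysed here, and nothing can be said of its level.

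The arrays measured MIN6, a cell line from a mouse insulinoma that secretes insulin. Cells on 3 arrays had been electroporated with 100 pmol of an siRNA to TDP-43 (gene Tardbp), which binds RNA and acts in its splicing, and those on the other 3 with 100 pmol of a control siRNA. Both groups were therefore electroporated and neither was left untreated, and no source used here gives the time from electroporation to lysis. The labels do not say whether the 3 replicates of a group were separate cultures, so the p-values measure only the spread between these arrays. The target came out as labelled: on Tardbp's brightest probe set, 1423723_s_at, the signals were 2257, 2249 and 1836 after TDP-43 siRNA, against 3748, 3940 and 3699 with control siRNA. The depth of the decrease varied between Tardbp probe sets. Means after TDP-43 siRNA and with control siRNA were 2114 and 3796 on 1423723_s_at, and 348 and 942 on 1434419_s_at.

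The labelled cell type was checked against beta cell markers. Ins2 read between 6918 and 8372 after TDP-43 siRNA and between 6936 and 8327 with control siRNA, and Iapp, Pdx1, Nkx6-1, Slc2a2 and Slc30a8 all passed the filter on low signals. Of the 6 beta cell markers with a probe set, 0 changed by limma (1 at an unadjusted p below 0.05, Slc30a8). Of 5 tested markers of alpha, delta and PP cells, 4 of acinar and duct cells and 6 of fibroblasts, endothelial and immune cells, 0 changed either. At an unadjusted p below 0.05 there was 1 in each list, Sst of delta cells at 1.03, Car2 of duct cells at -0.76 and Col1a2 of fibroblasts at -0.63 (log2 difference, TDP-43 siRNA minus control siRNA). Over all genes by brightest probe set, 12.2% had such a p by limma. Sst was dim, at 97.3, 43.2 and 46.7 after TDP-43 siRNA against 9.92, 42.1 and 23.3 with control siRNA. Its mean over all arrays passed the filter only through the TDP-43 siRNA arrays. Summed over its markers, the alpha, delta and PP list lay between 29462 and 32331 after TDP-43 siRNA and between 32061 and 34314 with control siRNA. These cells gave strong signals for some of these markers themselves, Gcg between 7345 and 10654 and Ttr between 20776 and 23853. The acinar and duct list lay between 5228 and 6405 after TDP-43 siRNA and between 5763 and 6490 with control siRNA, with Krt7, read between 4821 and 6108 on all 6 arrays, making up most of the sum, while Cpa1 was never above 5.49. The fibroblast, endothelial and immune list lay between 367 and 485 after TDP-43 siRNA and between 357 and 569 with control siRNA, and Ptprc was never above 16.9. Their part in the results below was not tested.

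The first comparison concerned which auxiliary subunits gave a signal in these cells. A probe set was tested only if its mean signal over the 6 arrays exceeded 41.5, which leaves out the dimmest 40% of the array. Of the 18 member probe sets 9 passed: 4 of Cacna2d1, both of Cacnb2, and 1 each of Cacnb1, Cacnb4 and Cacna2d2. The single probe set of Cacna2d3 did not pass. The member nearest above the limit was Cacnb4 1436912_at at a mean of 50.3, and the nearest below was Cacnb4 1428928_at at 39.7. Signals of different probe sets depend on their probes, so no gene's level is set against another's here.

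**Figure D1:**
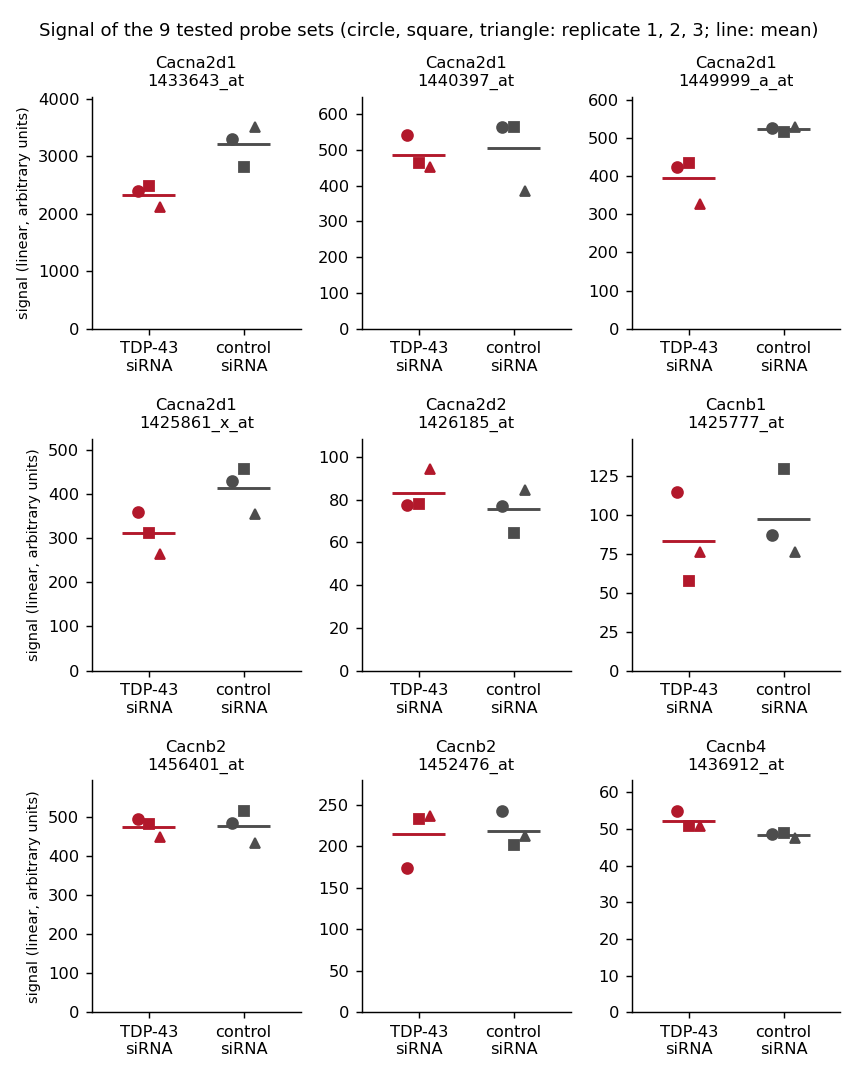
Signal on a linear scale (arbitrary units, each axis from 0) of the 9 tested member probe sets, with TDP-43 siRNA arrays in red and control siRNA arrays in grey, replicates 1, 2 and 3 as circle, square and triangle, and a line at each mean. The TDP-43 siRNA arrays lie below all control arrays on 1433643_at and 1449999_a_at of Cacna2d1, and above them on 1436912_at of Cacnb4.

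The second question was whether lowering TDP-43 changed the auxiliary subunits. Cacna2d1, which encodes alpha2delta-1, the form that binds gabapentin and whose loss in mice impairs insulin release, read lower after TDP-43 siRNA on 3 of its 4 tested probe sets, by 24.0 to 27.0%, but none of these differences passed the threshold over the whole array. The differences of Cacnb2 were near 0 on both of its probe sets, and Cacnb1, Cacnb4 and Cacna2d2 were dim, with SEs of 0.19 to 0.26. By limma, 0 of the 9 tested probe sets passed an adjusted p of 0.05 (3 at an unadjusted p below 0.05, all of Cacna2d1), against 0.585% of all 27022 tested probe sets, 158 in number, and 0.455% when lower calls alone are counted. At an unadjusted p below 0.05 the share over all tested probe sets was 11.3%. Counted by brightest probe set, 1 of 5 member genes, Cacna2d1, had such a p by limma, against 12.2% of all 12619 genes. The median difference was -0.03 over the 9 member probe sets, with 7 below 0, and 0.01 over all tested probe sets, of which 48.3% lay below 0. Of those 7 probe sets 4 are of Cacna2d1, and by brightest probe set 3 of 5 genes lay below 0. All differences are TDP-43 siRNA minus control siRNA on the log2(signal + 12) scale, which understates the change of dim probe sets.

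Among the alpha2delta subunits, the brightest probe set of Cacna2d1, 1433643_at, read 2403, 2481 and 2118 after TDP-43 siRNA, against 3298, 2811 and 3511 with control siRNA. All 3 TDP-43 siRNA arrays lay below all 3 control arrays. Such a separation held for 17.2% of all tested probe sets in either direction and for 8.45% in this one. The mean was 2334 ± 191 after TDP-43 siRNA and 3207 ± 359 with control siRNA (SD, n = 3 each). The log2 difference was -0.45 (SE 0.09, limma adjusted p = 0.0770, unadjusted p = 0.000707). Its unadjusted 95% confidence interval ran from -0.66 to -0.24, and the difference corresponds to 73.0% of the control level on that scale. Over the array, 765 tested probe sets (2.83%) had a difference as low or lower, of which 118 passed the threshold. Cacna2d1 was already known from earlier results of these data as the member with the largest difference, so its size is a description of the gene and not an independent sign.

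The second probe set to separate the groups was 1449999_a_at, whose suffix marks probes shared by variants of the gene and which the annotation ties to a RefSeq transcript of Cacna2d1. It read 424, 434 and 328 after TDP-43 siRNA, against 528, 518 and 530 with control siRNA. The control arrays agreed within a narrow range, and the spread lay with the TDP-43 siRNA arrays, where replicate 3 was lowest. The log2 difference was -0.41 (SE 0.12, limma adjusted p = 0.208). The third, 1425861_x_at, whose suffix marks probes that can also read other transcripts, gave 359, 313 and 263 after TDP-43 siRNA, against 430, 457 and 353 with control siRNA. Here the groups overlapped, because control replicate 3 lay just below TDP-43 siRNA replicate 1. The log2 difference was -0.40 (SE 0.14, limma adjusted p = 0.313).

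The remaining tested probe set of Cacna2d1, 1440397_at, read 543, 463 and 452 after TDP-43 siRNA, against 563, 564 and 384 with control siRNA. The lowest of the 6 values belonged to control replicate 3 and the groups overlapped. The log2 difference was -0.03 (SE 0.15, limma adjusted p = 0.957). Fitted directly, the change on 1433643_at differed from that on 1440397_at by -0.42 (SE 0.23, limma adjusted p = 0.832 over 10814 pairs of probe sets of one gene), with an unadjusted 95% confidence interval from -0.96 to 0.12. It differed by -0.04 (SE 0.13) from that on 1449999_a_at and by -0.06 (SE 0.19) from that on 1425861_x_at. None of the 3 pairs passed (0 at an unadjusted p below 0.05), and over the whole array 0% of pairs did by this fit (6.99% at an unadjusted p below 0.05). With the variance trend taken on the mean level of a pair, a fit chosen after seeing the data, 0.0185% of all pairs passed and again none of these. All 4 tested probe sets of Cacna2d1 thus lay below 0, as did all tested probe sets of 170 of the 1144 genes with 4 or more (14.9%). That share includes genes with more than 4, so it is not an exact match. The sign of 1440397_at was not stable: it lay above 0 in 3 of the 6 fits with 1 array left out.

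**Figure D2:**
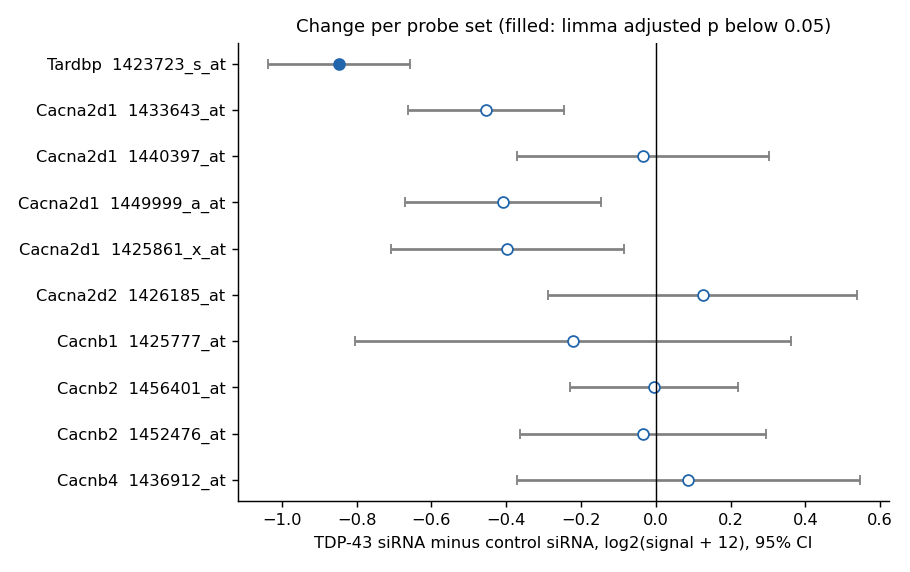
Difference between TDP-43 siRNA and control siRNA in log2(signal + 12), with unadjusted 95% confidence intervals, for the brightest Tardbp probe set and the 9 tested member probe sets. Only Tardbp passes the adjusted threshold, the intervals of 3 Cacna2d1 probe sets leave out 0, and the other 6 member intervals include it.

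Relative to the control mean of each probe set, the median over the 4 tested Cacna2d1 probe sets was 83.8%, 80.1% and 64.9% on TDP-43 siRNA arrays 1, 2 and 3, and 103%, 105% and 93.2% on control arrays 1, 2 and 3. TDP-43 siRNA replicate 3 had the lowest Cacna2d1 median and also the lowest signal on the brightest Tardbp probe set. Replicates 1 and 2 read 2257 and 2249 on that Tardbp probe set but 342 and 382 on 1434419_s_at, so their order depended on the probe set. A relation between these genes was not tested, and a single array cannot show one. On control replicate 3, 1433643_at was the highest of the 6 arrays while 1440397_at was the lowest, so the probe sets did not follow one another there. Less RNA per cell and fewer cells carrying the transcript cannot be told apart in these bulk samples.

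The difference on 1433643_at kept its sign with each array left out in turn, between -0.55 without control replicate 2 (limma adjusted p = 0.0562) and -0.39 without control replicate 3 (0.105), and passed in none of these 6 fits. Without both arrays numbered 3 it was -0.32 (limma adjusted p = 0.171). Represented by the mean of its tested probe sets, Cacna2d1 was at -0.32 (limma adjusted p = 0.202 over 12619 genes).

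**Figure D3:**
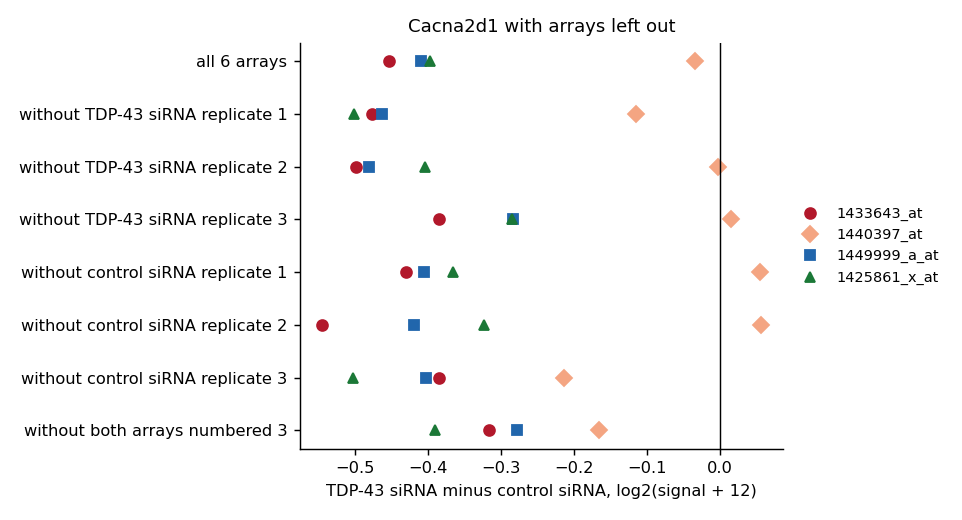
Difference between TDP-43 siRNA and control siRNA in log2(signal + 12) for the 4 tested Cacna2d1 probe sets, with all 6 arrays, with each array left out, and with both arrays numbered 3 left out. On the other probe sets the values lie between -0.55 and -0.28, whereas 1440397_at lies between -0.21 and 0.06.

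Cacna2d2 encodes alpha2delta-2, which is disrupted in the ducky mouse. Its brightest probe set, 1426185_at, read 77.4, 77.9 and 94.5 after TDP-43 siRNA, against 77.2, 64.6 and 84.4 with control siRNA. The values overlapped. The log2 difference was 0.13 (SE 0.19, limma adjusted p = 0.856). It was 0.0335 without control replicate 2, 0.0425 without TDP-43 siRNA replicate 3 and 0.20 without control replicate 3. The interval of this difference, from -0.29 to 0.54 (95%, unadjusted), still holds an increase as large as the Cacna2d1 decrease. The other 2 probe sets of Cacna2d2 were dimmer, with 1451955_a_at never above 4.34 on any array. Cacna2d3, the alpha2delta-3 gene known for its part in heat nociception in flies and mice, read 31.8, 12.9 and 23.8 after TDP-43 siRNA, against 20.1, 23.5 and 14.4 with control siRNA.

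Among the beta subunits, Cacnb2 gave the most precise measurement. Cacnb2 encodes a membrane-associated beta subunit that partners the L-type pore in heart and is also found in islets. On 1456401_at it read 493, 480 and 448 after TDP-43 siRNA, against 482, 515 and 431 with control siRNA. The TDP-43 siRNA values all lay within the range of the control values. The means were 474 ± 23.2 after TDP-43 siRNA and 476 ± 42.2 with control siRNA (SD, n = 3 each), and the log2 difference was -0.00472 (SE 0.10, limma adjusted p = 0.994). The 95% interval of the difference (unadjusted), from -0.23 to 0.22, leaves out a decrease as large as the estimate of -0.45 for Cacna2d1.

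The second probe set of Cacnb2, 1452476_at, read 174, 233 and 236 after TDP-43 siRNA, against 243, 202 and 212 with control siRNA. Its log2 difference was -0.03 (SE 0.15, limma adjusted p = 0.956), and the 2 probe sets differed in their change by 0.03 (SE 0.17). TDP-43 siRNA replicate 1 was the lowest array on 1452476_at but the highest of its group on 1456401_at.

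Cacnb1, the beta subunit of the skeletal muscle channel, was tested on 1425777_at, which read 115, 57.6 and 76.4 after TDP-43 siRNA, against 86.9, 130 and 76.1 with control siRNA. The replicates of each group were spread over most of the whole range, and the groups overlapped. The log2 difference of -0.22 had an SE of 0.26 (limma adjusted p = 0.805). It moved to -0.45 without TDP-43 siRNA replicate 1, -0.36 without control replicate 3 and -0.33 without both arrays numbered 3, and to -0.0186 without TDP-43 siRNA replicate 2 and -0.0199 without control replicate 2. Its other 3 probe sets were below the filter.

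Cacnb4 encodes the beta subunit missing in the lethargic mouse and is best known from brain. On 1436912_at it read 55.0, 50.7 and 50.8 after TDP-43 siRNA, against 48.6, 49.1 and 47.6 with control siRNA. All TDP-43 siRNA arrays lay above all control arrays, a separation in that direction shared by 8.74% of all tested probe sets. The difference was small, 0.09 on the log2 scale (SE 0.21, limma adjusted p = 0.919), where the SE borrows the spread of other dim probe sets. The other 2 probe sets of Cacnb4 did not pass the filter and overlapped between groups.

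**Figure D4:**
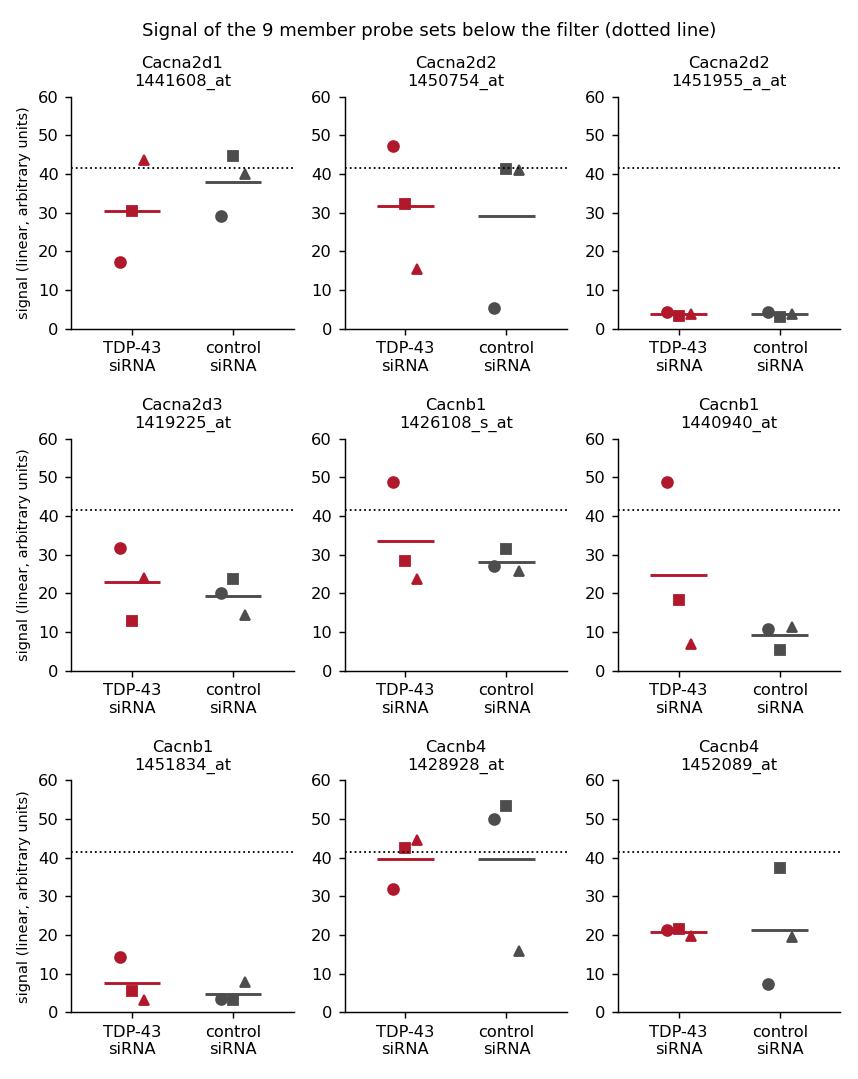
Signal on a linear scale (arbitrary units) of the 9 member probe sets left out by the filter, with TDP-43 siRNA arrays in red and control siRNA arrays in grey, replicates 1, 2 and 3 as circle, square and triangle, a line at each mean, and a dotted line at 41.5, the value their mean over the 6 arrays would have to exceed. Single arrays rise above the line, up to 53.4, but the groups overlap on all 9.

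The 9 probe sets below the filter had signals between 2.90 and 53.4. Their groups overlapped in every case. Fitted with no filter, their differences ran from -0.27 to 0.63 with SEs between 0.14 and 0.50, and the smallest limma adjusted p was 0.719. The largest, on 1440940_at of Cacnb1, came from TDP-43 siRNA replicate 1 at 48.9, where the other arrays of that group read 18.1 and 6.81 and the control arrays 10.8, 5.39 and 11.3. At this signal the fifth probe set of Cacna2d1, 1441608_at, could not resolve a difference of the size seen on the brighter ones: it was at -0.27 (SE 0.30).

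Whether Cacna2d1 changed unequally to the other members was tested on the log2 difference between its brightest probe set and theirs within each array. The difference in change was -0.45 (SE 0.17) against Cacnb2, -0.54 (SE 0.12) against Cacnb4 and -0.58 (SE 0.15) against Cacna2d2, each with an exact two-sided permutation p of 0.1 (0.133 adjusted over the 4 comparisons). With 3 arrays against 3, an exact p of 0.1 is the smallest possible. Against Cacnb1 it was -0.23 (SE 0.40, exact permutation p = 0.7). Since Cacna2d1 was chosen from these same data as the member with the largest decrease, the shared direction of these 4 differences follows from that choice. Their sizes and p-values are not independent of it either. As no exact p could fall below 0.1, the test could not pass a threshold of 0.05 and does not settle whether the change was unequal.

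By the root mean square difference of mean-centred log2 values over the 6 arrays, the 3 genes whose pattern was most like Cacna2d1 1433643_at were Zfp654 (0.05), Mtmr14 (0.05) and Bmpr2 (0.06), where Cacna2d1 itself spanned 0.73. These genes had differences of -0.39, -0.39 and -0.41, and none passed the threshold (limma adjusted p from 0.107 to 0.213). They were picked for closeness over the same 6 arrays, so differences near that of Cacna2d1 follow from the choice. The nearest genes to Cacnb2 were Dnajc1, Phf20l1 and Pgrmc2, to Cacnb1 Ropn1l, Alpi and Col6a2, to Cacnb4 Ncoa4, Zfp799 and Ebpl, and to Cacna2d2 Trappc12, Igtp and Eci2. For these 4 members the distances lay between 0.01 and 0.08. They depend on the span of the member itself, which was 0.25 for Cacnb2, 1.03 for Cacnb1, 0.17 for Cacnb4 and 0.47 for Cacna2d2.

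The pore subunits that the auxiliary subunits serve did not pass either. Of 9 with a probe set 6 were tested and 0 changed by limma (1 at an unadjusted p below 0.05), with a median difference of 0.05. Over all 12619 genes by brightest probe set, 12.2% had an unadjusted p below 0.05 and the median difference was 0.02. Cacna1d, an L-type pore gene of beta cells, read 432, 500 and 501 on 1427974_s_at after TDP-43 siRNA, against 396, 324 and 406 with control siRNA. Its arrays did not overlap, and the difference was 0.34 (SE 0.12, limma adjusted p = 0.293), with the second probe set at 0.15. Cacna1c, the other L-type pore gene of beta cells, was at 0.05 (SE 0.11) on its brightest probe set, Cacna1b of the N-type channel at 0.31 (SE 0.16), Cacna1h of the T-type at -0.21 (SE 0.11) and Cacna1f, an L-type gene of the retina, at -0.21 (SE 0.23).

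The gamma subunits, many of which act on AMPA receptors rather than calcium channels, and Cacna2d4 had 9 genes with a probe set, of which 4 were tested. None passed by limma (0 at an unadjusted p below 0.05), and all 4 lay above 0 with a median of 0.19. Cacng5 was at 0.41 (SE 0.21), Cacng7 at 0.18 (SE 0.11), Cacng4 at 0.21 (SE 0.15) and Cacng2 at 0.03 (SE 0.23). Cacna2d4, the alpha2delta gene of photoreceptors, read 17.8, 15.9 and 28.8 on its brightest probe set after TDP-43 siRNA, against 16.7, 8.53 and 34.2 with control siRNA, which was below the filter.

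Partners of the beta subunits included Gem, an RGK GTPase that binds beta subunits and lowers channel activity. It read 318, 344 and 270 after TDP-43 siRNA, against 239, 248 and 214 with control siRNA. The groups did not overlap, and the difference of 0.39 (SE 0.12) did not pass (limma adjusted p = 0.262). Of 8 tested genes in this list 0 passed (1 at an unadjusted p below 0.05, against 12.2% of all genes), with a median of 0.09. Rimbp2, an active zone protein that links RIM to channels, was at 0.16 (SE 0.08), the ubiquitin ligase Nedd4l at -0.12 (SE 0.07), and Cbarp, which competes for beta subunits, at 0.14 (SE 0.10).

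Of 8 tested genes among alpha2delta ligands and trafficking partners, 0 passed by limma (0 at an unadjusted p below 0.05), with a median of -2.82e-05. By brightest probe set, Fmr1, whose protein lowers surface N-type channels, was at -0.16 (SE 0.07). Gpaa1 and Pigk of the enzyme that attaches GPI anchors were at 0.09 (SE 0.07) and -0.08 (SE 0.09). Lrp1, which takes part in alpha2delta trafficking, was at 0.18 (SE 0.19). Direction differed between probe sets of a gene. Further ones lay at 0.35 (SE 0.32) and -0.01 (SE 0.12) for Fmr1, and at -0.13 (SE 0.14) and -0.15 (SE 0.19) for Gpaa1. Those of Pigk lay at 0.10 (SE 0.11) and -0.00642 (SE 0.12). Of 11 tested genes of channel kinases, phosphatases and anchoring proteins, 0 passed, with a median of 0.12. At an unadjusted p below 0.05 there were 4, against 12.2% of all genes by brightest probe set. The calmodulin genes were not analysed here. The calcineurin subunits Ppp3r1 and Ppp3ca were at 0.15 (SE 0.05) and 0.17 (SE 0.07), Camk2b at 0.36 (SE 0.14) and Prkacb, a catalytic subunit of protein kinase A, at -0.15 (SE 0.06).

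**Figure D5:**
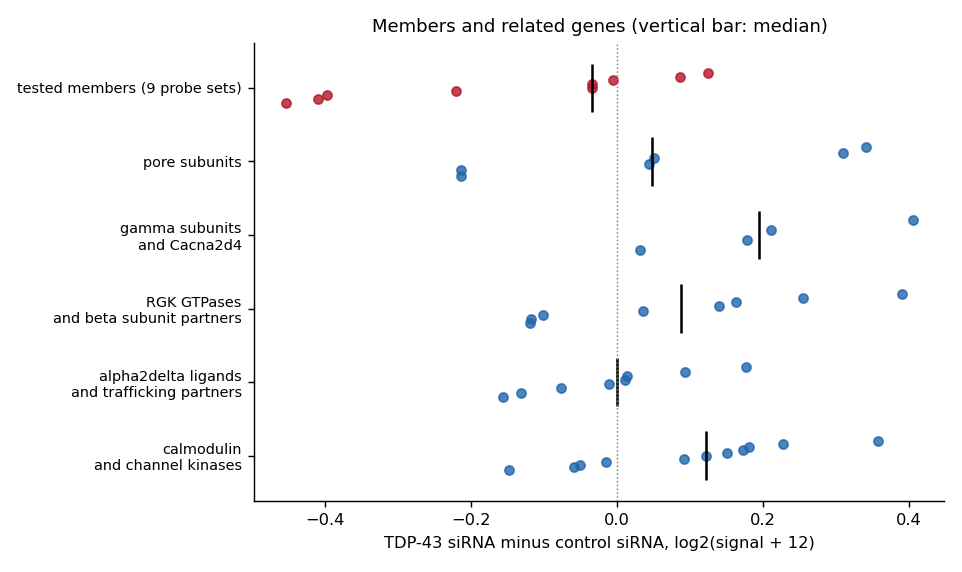
Difference between TDP-43 siRNA and control siRNA in log2(signal + 12) for the 9 tested member probe sets (red) and the brightest tested probe set of each related gene (blue), with a vertical bar at each median. The 3 lowest points are Cacna2d1 probe sets at -0.45, -0.41 and -0.40, and no point shown passed the adjusted threshold. Further probe sets of the related genes are not drawn, among them the dim 1439168_at of Camk2d at -0.56.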

How the data were processed

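The authors deposited 1 signal intensity per probe set and array on a linear scale, processed with MAS5 per the submitters' processing notes; biotinylated cRNA came from a 3' in vitro transcription kit, per the labels' protocols. The trimmed mean was 500.003 on every array, and median signals lay between 72.3 and 79.97. The table holds no detection calls. Gene names came from the platform annotation, with symbols updated by Entrez number through RefSeq genes of GRCm38.p6. Values were log2(signal + 12). Control probe sets and the dimmest 40% were left out, which left 27022, and the test was limma 3.58.1 under R 4.3.3 (intensity trend, two-sided, Benjamini-Hochberg over all tested probe sets, threshold 0.05). The number of arrays limits the precision.

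The text names all member probe sets, Cacna1c, Cacna1d and Tardbp, up to 4 genes with the smallest p in each related list, and the 3 nearest patterns. Members and lists were chosen with earlier results of these data known. The steps were tested on simulated data. Their noise was normal with the variances of the fit, and probe sets of all signal levels were pooled. Recovery at the level of the dim members was therefore not measured. For TDP-43 siRNA against control siRNA over 27022 probe sets, 44% of 100 changed by 0.5 and 81% of 100 changed by 1 were recovered, and 10 unchanged ones were called. Over 10814 pairs, 83% of 100 changed by 1 were recovered and 11 unchanged ones called. Alternatives covered pseudocounts (1 and 42), filters, normalization, variance models, array weights, a replicate block, gene-level summaries and arrays left out. Figures were drawn with matplotlib 3.10.9.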

Additional observations from a re-analysis of the deposited data

How the results depend on the processing

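No member probe set, member gene or pair of member probe sets passed the threshold under any alternative run, and of 276 single values 259 kept their sign and 17 changed it. Many of the 259 could not change sign. The filters, variance models and replicate block leave each estimate as it was, and median centring leaves differences within an array as they were. With each array left out in turn, the difference ran from -0.214 to 0.0558 for Cacna2d1 1440397_at, from -0.0725 to 0.0522 for Cacnb2 1456401_at and from -0.107 to 0.101 for Cacnb2 1452476_at. The pairs ran from -0.126 to 0.0174 for Cacna2d1 1433643_at minus 1449999_a_at, from -0.223 to 0.117 for 1433643_at minus 1425861_x_at and from -0.134 to 0.141 for the pair of Cacnb2. Median centring put Cacnb2 1456401_at at 0.000932. Without both arrays numbered 3, the pair of 1433643_at and 1425861_x_at was at 0.0739 and the difference in change between Cacna2d1 and Cacnb1 at 0.0168, against -0.233 with all arrays, which left 3 of 4 such differences below 0. The limma adjusted p of Cacna2d1 1433643_at ran from 0.0562 to 0.315 over its alternatives.

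The number of probe sets called over the whole array, 158, moved more. It was 69 with no filter, 241 without both arrays numbered 3, and 56 to 325 with 1 array left out: 63, 77 and 62 without TDP-43 siRNA replicates 1, 2 and 3, and 56, 63 and 325 without control replicates 1, 2 and 3. Without the intensity trend limma called 0 (2896 at an unadjusted p below 0.05). The cause was not tested. Deviations from the group mean correlated at -0.11, -0.13 and 0.25 between same-numbered arrays. Between arrays of unlike number they ran from -0.19 to 0.29. With 3 arrays per group this cannot settle whether the numbers pair the samples. With the replicate block, 156 probe sets were called and 0 members, and Cacna2d1 1433643_at had a limma adjusted p of 0.113. A variance trend on the mean level of a pair, chosen after seeing the data, called 2 of 10814 pairs and 0 of the members.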

Other observations

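Among the related channel genes, 43 further probe sets beside the brightest were tested. None passed the adjusted threshold by limma, and 6 had an unadjusted p below 0.05 (11.3% of all tested probe sets did). On these 6, picked out after their values were seen, the groups did not overlap, and 3 lay higher and 3 lower after TDP-43 siRNA. Such a separation held for 17.2% of all tested probe sets and goes with a small p, so it is no further sign. It was also seen on further probe sets with a larger p, such as 1433835_at of Ppp3cb. For Cacna1b, the N-type pore gene, 1436602_x_at read 107, 121 and 78.9 after TDP-43 siRNA, against 66.0, 68.8 and 62.9 with control siRNA (log2 difference 0.54, SE 0.19, limma adjusted p = 0.330). For Cbarp, which competes for beta subunits, 1433494_at read 368, 392 and 439 after TDP-43 siRNA, against 322, 341 and 314 with control siRNA (0.28, SE 0.11, limma adjusted p = 0.340). For Cacng7, 1426336_at was at 0.34 (SE 0.15, limma adjusted p = 0.432). On the lower side, 1457651_x_at of Rem2, an RGK GTPase, was at -0.39 (SE 0.17, limma adjusted p = 0.421), where the brightest probe set was at -0.12. For Cacna1c, 1435730_at was at -0.26 (SE 0.12, limma adjusted p = 0.436), where the brightest probe set was at 0.05. For Camk2d, a calmodulin-dependent kinase, 1439168_at was at -0.56 (SE 0.25, limma adjusted p = 0.438), where the brightest was at 0.09. This Camk2d probe set was dim, at 29.0, 46.9 and 28.1 after TDP-43 siRNA, against 52.3, 56.1 and 58.2 with control siRNA. Its mean over all arrays passed the filter only through the control siRNA arrays.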
